A study of Mus musculus with 30 samples.

Results

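The tumour suppressor p53, encoded by Trp53, and 9 genes counted among its targets were followed over CBD dose and time: Mdm2, Ccng1, Trp53inp1, Phlda3 and Zmat3, the arrest genes Cdkn1a, Gadd45g and Plk2, and the death gene Bbc3. The 10 members were chosen by name, with earlier results of these data known. They are the rows of the count tables whose Ensembl gene ID carries one of these symbols. Each matched 1 ID, out of 56941 gene IDs. The cells were mHypoA-2/12, a line made from hypothalamus of adult mice. They received cannabidiol (CBD), a non-psychotropic compound of hemp, at 0.325, 0.75, 1.5 or 3 µM, or the vehicle alone (0.1% DMSO, which the CBD-treated cultures contained too), for 6 h or for 24 h. Each of these 10 groups held 3 libraries, so that each time had 3 vehicle and 12 CBD-treated libraries, 30 in all. All groups share the background of the line, which was immortalised with a temperature-sensitive SV40 large T antigen, a viral protein known to bind p53 and block its activity. Whether it was active here is not measured by a mouse gene table. It is a single line, and no animal was treated. The replicates are separate samples in the labels, and nothing further says how they were separated, so the p-values measure the spread between these samples, which may be technical.

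The protein p53 is held at a low level in unstressed cells, mainly because Mdm2 marks it for degradation, and damage or other stress frees it to bind DNA and switch on its target genes. The targets divide into those that feed back on p53, those that halt the cell cycle and those that start cell death through mitochondria. Since p53 is regulated chiefly as a protein, the Trp53 transcript is not a measure of its activity. In neurons the pathway is known for its part in death after DNA damage and excitotoxicity.

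The QuantSeq 3′ method counts 1 fragment per transcript at its 3′ end, and the libraries held between 1839621 and 4420675 reads on genes. The counts of the members in a library ranged from 852 to 2086 reads for Cdkn1a but only from 20 to 111 for Trp53 and from 17 to 126 for Trp53inp1, so that the smallest differences these data can show are larger for the last pair. The third vehicle library of 6 h held 3574833 reads, against 1839621 and 1919498 in the other vehicle libraries of that time, and 17.9% of its reads lay outside genes, against 21.4% and 20.8%. It also stood above both for some members, which is stated with each. The labelled hypothalamic neuron was not seen in all its markers, because Npy and Snap25 had 1 and 4 reads over all 30 libraries, although the neuronal tubulin Tubb3 had 4123. The astrocyte and oligodendrocyte markers Aqp4 and Olig2 had 0 reads each, the microglial marker Tmem119 had 20669, and the mesenchymal genes Vim and Col1a1 had 185540 and 171620. No marker gene of these types was called between CBD and vehicle over the 4 doses at either time. Levels are given as CPM, the counts of a gene scaled to a fixed total with size factors over all 30 libraries, and differences as log2 fold changes with their standard error (SE). A gene was called where the false discovery rate (FDR) over all genes of a comparison was below 0.1 in the edgeR quasi-likelihood test. All 10 members passed the filter on low counts in each fit.

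Promoter windows were available in RefSeq (GRCm38.p6, 250 bases before to 50 after the start site) for 8 of the 10 members, as 11 windows, and not for Zmat3 and Trp53inp1. Each of 32851 mouse windows was searched on both strands for the p53 half-site consensus (by name, 10 bases, held by 8.36% of windows), for the core of a full p53 site (CATG, any 6 bases, CATG, held by 0.712%) and for the cyclic AMP response element TGACGTCA (held by 1.79%). The core overlaps a half-site where both match. The stretches shown are the 250 bases before the start site of the members with a match among the targets, with matches in capitals, since Cdkn1a, Mdm2 and Plk2 carry the 6 h result below and Ccng1 is the target with a match that was not called.

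Cdkn1a (chr17:29090729-29090978, plus strand, the upstream of 2 start sites): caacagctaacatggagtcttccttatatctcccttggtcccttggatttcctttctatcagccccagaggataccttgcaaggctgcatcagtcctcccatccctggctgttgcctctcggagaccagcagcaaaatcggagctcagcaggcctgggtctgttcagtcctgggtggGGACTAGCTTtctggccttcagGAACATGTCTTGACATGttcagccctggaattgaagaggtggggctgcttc
Mdm2 (chr10:117710759-117711008, minus strand): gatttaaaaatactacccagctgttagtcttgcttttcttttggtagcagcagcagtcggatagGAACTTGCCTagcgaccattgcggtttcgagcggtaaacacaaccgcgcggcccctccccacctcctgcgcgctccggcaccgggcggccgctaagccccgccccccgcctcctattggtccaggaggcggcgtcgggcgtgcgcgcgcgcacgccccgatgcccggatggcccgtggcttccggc
Plk2 (chr13:110394794-110395043, plus strand): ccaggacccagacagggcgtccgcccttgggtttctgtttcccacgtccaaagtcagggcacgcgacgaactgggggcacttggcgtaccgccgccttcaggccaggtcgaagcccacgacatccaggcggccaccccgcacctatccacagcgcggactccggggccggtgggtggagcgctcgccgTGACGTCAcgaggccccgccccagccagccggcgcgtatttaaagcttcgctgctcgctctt
Ccng1 (chr11:40755287-40755536, minus strand): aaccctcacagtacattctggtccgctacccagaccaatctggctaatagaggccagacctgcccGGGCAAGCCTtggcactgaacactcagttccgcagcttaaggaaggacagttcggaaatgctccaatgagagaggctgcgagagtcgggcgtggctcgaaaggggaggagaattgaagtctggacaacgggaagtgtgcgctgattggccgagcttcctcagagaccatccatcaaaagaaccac

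Cdkn1a held the full core, beginning 48 bases before the start site, inside a stretch with a half-site beginning at 51 bases, and a further half-site at 73 bases. Mdm2 and Ccng1 held a half-site each, beginning 186 and 185 bases before the start. Plk2 held the cyclic AMP response element at 62 bases and neither p53 motif. The windows of Bbc3, Phlda3 and Gadd45g held no p53 match, and Trp53 itself held a half-site. Of the 8 members with a window, 4 held a half-site. A match describes letters only, and p53 sites outside these windows, such as those in the first intron of Mdm2, were not searched.

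At 6 h, 5 of the 10 members were lower in the CBD-treated libraries than in vehicle when the 4 doses were pooled, and none was higher. These were Plk2, Gadd45g, Bbc3, Mdm2 and Cdkn1a. The estimate was below 0 for all 10 members, with a median log2 fold change of -0.40, against -0.02 over the 12012 genes tested. Of those genes, 90 (0.749%) were called, and 61 (0.508%) were called lower. In 4 members, Mdm2, Cdkn1a, Bbc3 and Plk2, the highest of the 12 CBD-treated libraries was below the lowest vehicle library, which held for 87 genes, or 0.724% of those tested. The paper already lists all 5 called members among the genes that CBD altered at 6 h in these libraries, from tests of single doses. For Mdm2 the paper states a rise at the lowest and intermediate doses. Here the log2 fold changes of Mdm2 were -0.64, -0.41, -0.72 and -0.52 from the lowest to the highest dose. The reason for the opposite direction was not tested. Since the members were chosen with such results known, these shares do not test the pathway as a set.

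Trp53 (ENSMUSG00000059552, chr11:69580359-69591873 on the plus strand of GRCm38, as for all gene positions here) was measured at 22.8, 27.2 and 30.8 CPM in the vehicle libraries of 6 h. In the CBD-treated libraries it ran from 13.2 to 31.2 CPM with a median of 22.96. The groups overlapped over most of their range. The log2 fold change over the 4 doses was -0.31 (SE 0.23), with an edgeR FDR of 0.715 and a 95% interval from -0.78 to 0.17. The interval takes in 0 and also the falls of Mdm2, Bbc3 and Cdkn1a given below, but not that of Plk2.

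Mdm2 (ENSMUSG00000020184, chr10:117688875-117710758, minus strand), the ubiquitin ligase that limits p53 and is itself a p53 target, was at 94.0, 98.2 and 147 CPM in vehicle. It was between 63.4 and 87.5 CPM in the 12 CBD-treated libraries, with a median of 77.8. No CBD-treated library reached the lowest vehicle library, and the third vehicle library stood far above the others. The log2 fold change was -0.57 (SE 0.13, edgeR FDR 0.0387), or 67.2% of vehicle. Without the third vehicle library it was -0.32, with an FDR of 0.280, so the call rested on that library.

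Cdkn1a (ENSMUSG00000023067, chr17:29090976-29100727, plus strand) encodes p21, the inhibitor of cyclin-dependent kinases through which p53 halts the cell cycle. Vehicle libraries held 640, 638 and 579 CPM. The libraries of 0.325 µM held 482, 454 and 412 CPM and those of 0.75 µM 480, 459 and 376. At 1.5 µM the values were 470, 459 and 398 CPM, and the highest dose gave 448, 433 and 454. The lowest vehicle library was well above the highest CBD-treated one, and the 4 doses covered nearly the same range. Over the 4 doses the level was 71.6% of vehicle (log2 fold change -0.48, SE 0.10, edgeR FDR 0.0169). The FDR was 0.121 without the second vehicle library, at a log2 fold change of -0.46.

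Gadd45g (ENSMUSG00000021453, chr13:51846678-51848468, plus strand), a stress sensor that binds p21 and activates the p38 and JNK kinases, was at 60.6, 61.9 and 120 CPM in vehicle. The 12 CBD-treated libraries ran from 27.4 to 74.3 CPM with a median of 46.1. The groups overlapped, because libraries of 0.75 µM reached the level of the lower vehicle libraries, and the third vehicle library again stood apart. The log2 fold change was -0.79 (SE 0.18, edgeR FDR 0.0437). It was -0.35 without that library, with an FDR of 0.408.

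Plk2 (ENSMUSG00000021701, chr13:110395046-110400844, plus strand), a polo-like kinase of centriole duplication that p53 and neuronal activity both induce, changed most among the members. The vehicle libraries held 48.4, 46.4 and 49.7 CPM, within a narrow band. The CBD-treated libraries lay between 17.6 and 37.0 CPM with a median of 23.6, all below that band. The level over the 4 doses was 52.7% of vehicle, at a log2 fold change of -0.92 (SE 0.18, edgeR FDR 0.0161). Leaving out any single library kept the log2 fold change between -0.99 and -0.88 and the FDR at or below 0.0694, so Plk2 was the only member of the 5 whose call held in each case.

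Bbc3 (ENSMUSG00000002083, chr7:16308393-16318205, plus strand) encodes PUMA, a BH3-only protein that starts the mitochondrial path of apoptosis. It was at 52.8, 57.6 and 57.2 CPM in vehicle. It was between 24.0 and 49.3 CPM with CBD, with a median of 36.6, below vehicle in each library. The log2 fold change was -0.59 (SE 0.14, edgeR FDR 0.0615), or 66.4% of vehicle. The FDR passed 0.1 when any of 6 libraries was left out, up to 0.232 without the second vehicle library, while the log2 fold change stayed between -0.63 and -0.55.

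The other targets were not called at 6 h. Phlda3 (ENSMUSG00000041801, chr1:135766119-135769136, plus strand), a repressor of the kinase Akt, was at 94.0, 87.0 and 68.3 CPM in vehicle and from 56.0 to 85.1 CPM with CBD (log2 fold change -0.31, SE 0.14, edgeR FDR 0.431). Zmat3 (ENSMUSG00000027663, chr3:32334792-32366014, minus strand), an RNA-binding protein that regulates splicing, was at 63.4, 59.8 and 65.8 CPM in vehicle and from 44.7 to 65.8 CPM with CBD (-0.16, SE 0.13, FDR 0.733). Both overlapped with vehicle. Ccng1 (ENSMUSG00000020326, chr11:40748552-40755311, minus strand), cyclin G1, which directs a phosphatase to Mdm2, was at 80.1, 79.5 and 97.2 CPM in vehicle and from 67.1 to 93.5 with CBD (-0.11, SE 0.12, FDR 0.824). Trp53inp1 (ENSMUSG00000028211, chr4:11156431-11174379, plus strand), a stress-induced protein that promotes p53 activity and autophagy, was at 10.6, 11.7 and 13.3 CPM in vehicle and from 7.05 to 16.2 with CBD (-0.15, SE 0.25, FDR 0.892). For Trp53inp1 the 95% interval ran from -0.67 to 0.36, which takes in the falls of Mdm2, Bbc3 and Cdkn1a but not those of Plk2 and Gadd45g, whereas for Ccng1 it ended at -0.37.

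**Figure D1:**
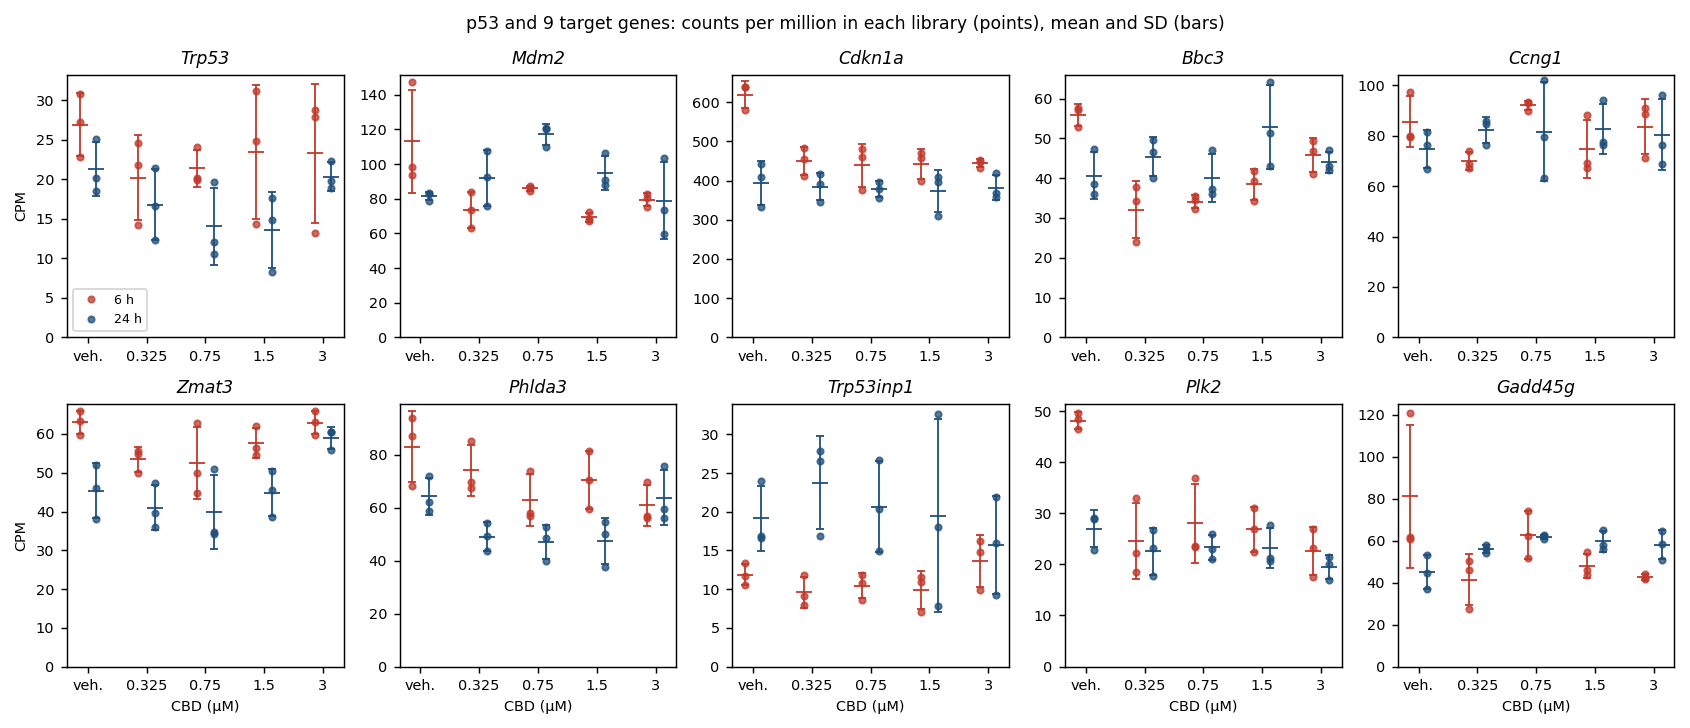
Level (CPM) of the 10 members in each library (points), with the group mean and SD (bars), by CBD dose in µM (veh., vehicle) at 6 h (red) and 24 h (blue). Each group has 3 libraries. The vehicle libraries of 6 h lie above all CBD-treated libraries of 6 h for Mdm2, Cdkn1a, Bbc3 and Plk2, and no such gap is seen at 24 h.

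Each dose was then set against vehicle, to ask whether the difference at 6 h grew with dose. The 4 comparisons share the 3 vehicle libraries, so they are not independent of each other. No member was called at any single dose by edgeR, where 0.2%, 0.0749%, 0.0999% and 0.05% of genes were called from the lowest to the highest dose. With p below 0.05 before adjustment, 5 members passed at each dose, each with an estimate below 0, against 8.8%, 7.79%, 7.91% and 7.26% of all genes in the same order. The lowest FDR were 0.100 for Plk2 at 3 µM and 0.103 for Bbc3 at 0.325 µM. DESeq2 called 11 member and dose pairs of 40, and edgeR called 14 with the percentage of reads outside genes as a covariate and 8 without the filter on low counts, so the count of 0 depends on the setting.

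That the size of the difference followed dose was not shown for any member. Cdkn1a had log2 fold changes of -0.47, -0.50, -0.49 and -0.48 from the lowest to the highest dose, each with an SE of 0.13. Its means were 449 ± 35.4, 439 ± 55.0, 442 ± 39.0 and 445 ± 10.9 CPM (SD, n = 3), differences far within the spread of a group. Plk2 had -0.97, -0.79, -0.85 and -1.08 in the same order, each with an SE of 0.23 to 0.24. Bbc3 had the steepest slope, with means of 32.0 ± 7.15, 34.1 ± 1.59, 38.4 ± 3.89 and 45.7 ± 4.25 CPM from the lowest to the highest dose, and log2 fold changes of -0.81, -0.72, -0.54 and -0.29. The trend for Bbc3 over log2 dose among the CBD-treated libraries was 0.16 per doubling (SE 0.06, unadjusted p = 0.00894 by edgeR), with an FDR of 0.996. That of Trp53inp1 was 0.14 (SE 0.09). Of the members, 6 had a trend estimate above 0 and 4 below. No member, and 0% of all genes, was called in the trend at 6 h. Only Bbc3 among the members had a p below 0.05 before adjustment, against 4.27% of genes.

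The 3 libraries of a dose were all below the 3 of vehicle for 7, 4, 5 and 5 members from the lowest to the highest dose, which held for 4.87%, 5.11%, 5.44% and 5.99% of genes. Mdm2, Cdkn1a, Bbc3 and Plk2 were among them at each dose. Gadd45g joined at each dose but 0.75 µM, and Ccng1 and Zmat3 at 0.325 µM alone. At 3 µM against the 3 lower doses at 6 h, no member and 0% of genes were called. Before adjustment p was below 0.05 for 1 member, Bbc3, at 0.39 (SE 0.15), against 5.19% of genes. DESeq2 called no member in the trend or in this comparison.

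**Figure D2:**
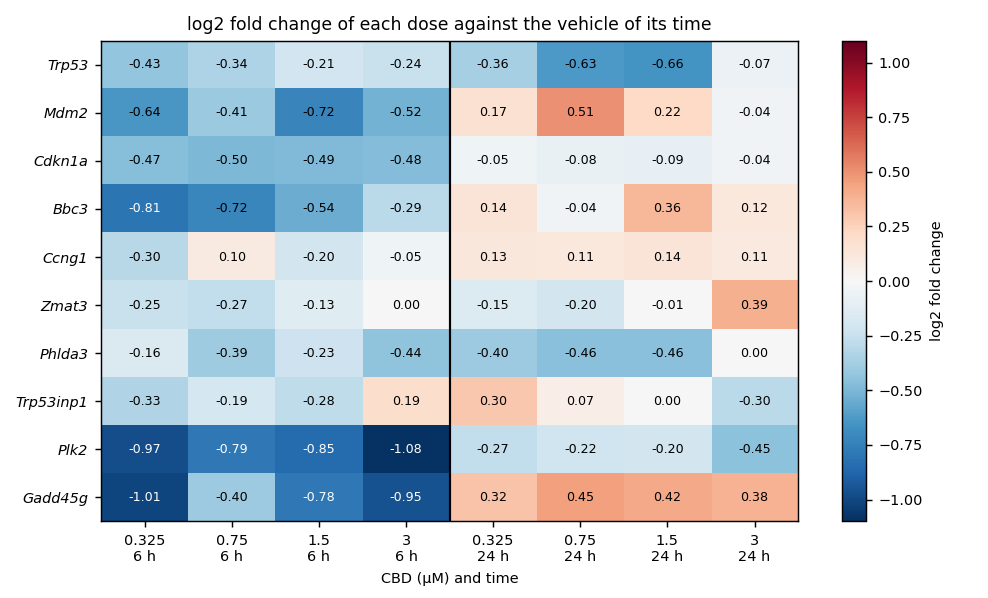
Log2 fold change of each dose of CBD against the vehicle of the same time, for the 10 members (rows) at 4 doses and both times (columns, µM), with blue for lower and red for higher. At 6 h the column values of Cdkn1a stay between -0.50 and -0.47 at all doses, whereas those of Bbc3 go from -0.81 at 0.325 µM to -0.29 at 3 µM. None of these single differences was called.

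At 24 h no member passed the test against vehicle. Over the 4 doses together none was called, against 13 genes, or 0.107%, of the 12118 tested. The median of the members was 0.01, against -0.01 over all genes, with 4 estimates below 0 and 6 above. At an unadjusted p below 0.05 by edgeR, 3 members passed (Trp53, Phlda3 and Gadd45g), against 6.73% of genes, and DESeq2 called none. No member had its CBD-treated libraries of 24 h wholly below or wholly above vehicle, which held for 0.272% and 0.338% of genes.

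Cdkn1a was at 409, 442 and 333 CPM in the vehicle libraries of 24 h and from 311 to 418 CPM in the CBD-treated libraries, so that the groups fully overlapped. Its log2 fold change was -0.06 (SE 0.10, edgeR FDR 0.961), with a 95% interval from -0.27 to 0.14. The estimate at 6 h was -0.48, and the direct test of the difference between the times, given below, did not call Cdkn1a (edgeR FDR 0.371). Plk2 was at 22.8, 29.2 and 28.95 CPM in vehicle and from 16.98 to 27.8 with CBD (-0.28, SE 0.16, FDR 0.819). Bbc3 was at 47.3, 38.5 and 36.0 CPM in vehicle and from 36.0 to 64.0 with CBD (0.14, SE 0.14, FDR 0.920). For Plk2 the interval, from -0.62 to 0.05, is too wide to separate no difference from one of the size seen in Mdm2 at 6 h.

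Mdm2 and Gadd45g had their estimates on the other side at 24 h. Mdm2 was at 82.7, 83.2 and 78.8 CPM in vehicle, and its means with CBD were 91.9 ± 15.95, 117 ± 6.26, 95.0 ± 9.81 and 78.9 ± 22.2 CPM (SD, n = 3) from 0.325 to 3 µM. The libraries of 0.75 µM, at 110, 121 and 120 CPM, were all above vehicle, while those of 3 µM lay on both sides of it. Over the 4 doses the log2 fold change was 0.21 (SE 0.13, edgeR FDR 0.837). Gadd45g was at 36.8, 44.8 and 53.2 CPM in vehicle and from 50.9 to 65.2 CPM with CBD, where only the lowest of the 12 libraries fell below the highest vehicle library. Its log2 fold change was 0.39 (SE 0.12, FDR 0.463).

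Trp53 at 24 h was at 25.2, 18.6 and 20.2 CPM in vehicle and from 8.28 to 22.4 CPM with CBD (log2 fold change -0.43, SE 0.21, edgeR FDR 0.738). Its means were 16.8 ± 4.55, 14.1 ± 4.88, 13.6 ± 4.82 and 20.3 ± 1.80 CPM (SD, n = 3) from the lowest to the highest dose, so 3 µM lay close to the vehicle mean of 21.3 ± 3.43. Phlda3 showed a like order, described below. For Trp53 the log2 difference of 3 µM from the 3 lower doses was 0.48 (SE 0.23, edgeR FDR 0.215), not called. With the percentage of reads outside genes as a covariate it was -0.019 (FDR 0.990). Ccng1 was at 76.4, 66.6 and 81.5 CPM in vehicle and from 63.0 to 102 with CBD (0.12, SE 0.13, FDR 0.925). Trp53inp1 was at 24.0, 16.6 and 16.8 CPM in vehicle and from 7.86 to 32.7 with CBD (0.02, SE 0.26, FDR 0.997). Both overlapped with vehicle throughout.

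At single doses of 24 h no member was called, where 0.066%, 0.0825%, 0.0413% and 0.00825% of genes were called from the lowest to the highest dose. With p below 0.05 before adjustment by edgeR, 2, 4, 4 and 3 members passed, against 8.33%, 7.63%, 7.34% and 9.16% of genes. The estimates were of both directions. They were Gadd45g at each dose (log2 fold change 0.32 to 0.45), Phlda3 at the 3 lower doses (-0.46 to -0.40), Trp53 at 0.75 and 1.5 µM (-0.63 and -0.66), Mdm2 at 0.75 µM (0.51), Bbc3 at 1.5 µM (0.36), and Zmat3 and Plk2 at 3 µM (0.39 and -0.45). DESeq2 called none of these, and a fit of only the groups compared called Mdm2 at 0.75 µM.

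The highest dose stood apart from the lower ones at 24 h for a pair of targets, Zmat3 and Phlda3. Both were higher at 3 µM than at the 3 lower doses together, and 771 genes, or 6.36%, were called higher in that comparison (10.5% in either direction), against 2 of 10 members. Zmat3 was at 60.6, 55.8 and 60.5 CPM at 3 µM. The 9 libraries of lower doses ran from 34.2 to 50.9 CPM with a median of 39.7, and vehicle was at 38.0, 52.1 and 46.1 CPM. The libraries of 3 µM were above all others of this time, vehicle included. The log2 difference from the lower doses was 0.51 (SE 0.14, edgeR FDR 0.0365).

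Phlda3 was at 59.4, 56.2 and 75.8 CPM at 3 µM, from 37.6 to 54.6 CPM with a median of 49.2 at the lower doses, and at 62.2, 58.7 and 72.0 CPM in vehicle. The libraries of 3 µM and of vehicle shared 1 range, and the 9 libraries of lower doses all lay below it. The log2 difference of 3 µM from the lower doses was 0.44 (SE 0.14, edgeR FDR 0.0551), while 3 µM differed from vehicle by 0.00 (SE 0.17) and the lower doses by -0.46 to -0.40, none of these called. No overlap between 3 µM and the lower doses, with 3 µM higher, was seen for these 2 members and for 1.86% of genes.

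The share of reads outside genes moved with the same groups. It was 20.8 to 21.7% at 3 µM and 20.9 to 22.2% in vehicle at 24 h, against 18.7 to 20.4% at the lower doses, and these ranges do not overlap. With that percentage as a covariate the difference of Zmat3 was 0.28 (FDR 0.731) and that of Phlda3 was 0.14 (FDR 0.876). The calls were also lost without the first or the third library of 3 µM, with an FDR of 0.205 and 0.139 for Zmat3 and 0.183 and 0.358 for Phlda3. Phlda3 also passed 0.1 without the third library of 0.75 µM (FDR 0.104). Of the cell type markers, Nefm of neurons was higher at 3 µM by 0.93 (SE 0.23, edgeR FDR 0.0191), 1 of 6 tested. Cx3cr1 of microglia was higher by 0.95 (SE 0.31, FDR 0.0657), 1 of 3 tested. Pdgfrb of mesenchymal cells was lower by -0.44 (SE 0.13, FDR 0.0427), 1 of 7 tested. The part of these markers in the result was not tested. In the trend over log2 dose at 24 h no member was called, against 3.13% of genes. Before adjustment 2 members, Zmat3 and Phlda3, had a p below 0.05 by edgeR, against 16.5% of genes, and DESeq2 called 1, Zmat3. The slope of Zmat3 was 0.17 per doubling (SE 0.05, FDR 0.108).

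**Figure D3:**
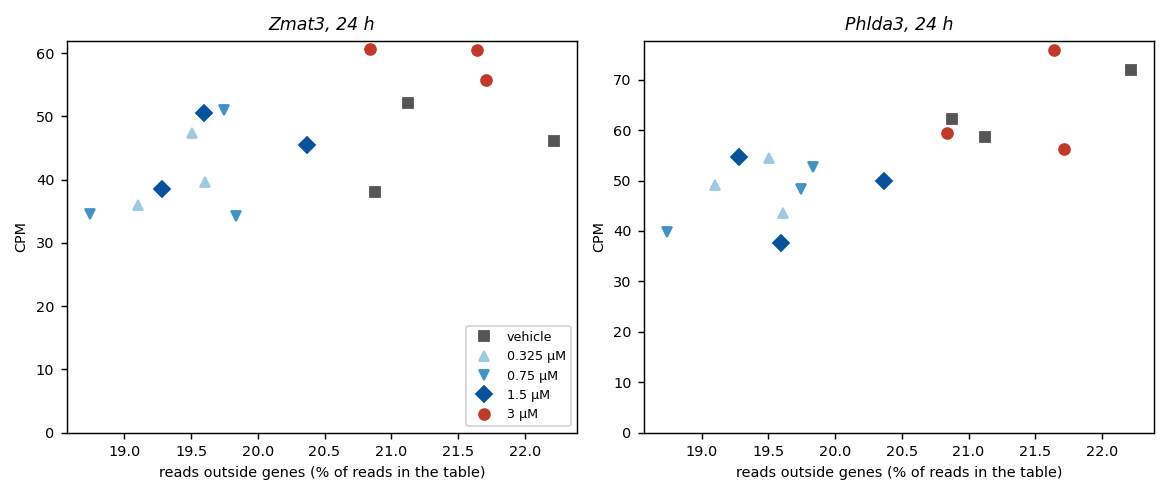
Level of Zmat3 and Phlda3 (CPM, vertical axis) in each of the 15 libraries of 24 h against the percentage of reads outside genes (horizontal axis), with a symbol for each dose. The libraries of 3 µM and of vehicle lie at 20.8% or more and those of the lower doses at 20.4% or less, and Zmat3 is highest in the 3 libraries of 3 µM.

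Whether the response to CBD differed between the times was tested as the change at 24 h minus the change at 6 h, over all 30 libraries. Gadd45g and Mdm2 passed, 2 of 10 members, against 30 of 12790 genes, or 0.235%. For Gadd45g the change at 24 h was higher by 1.18 on the log2 scale (SE 0.23, edgeR FDR 0.0233), and for Mdm2 by 0.79 (SE 0.18, FDR 0.0656). Without the third vehicle library of 6 h they were 0.75 (FDR 0.308) and 0.54 (FDR 0.461). The call of Gadd45g was also lost without the first or second vehicle library of 24 h (FDR 0.199 and 0.102). That of Mdm2 was lost in 12 of 30 such omissions. Bbc3, at 0.74 (SE 0.19, FDR 0.149), Plk2, at 0.64 (SE 0.25, FDR 0.559), and Cdkn1a, at 0.42 (SE 0.14, FDR 0.371), did not pass over all genes, so that a weaker response at 24 h than at 6 h is not shown for them. DESeq2 called Bbc3 as well.

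Without CBD, the libraries of 24 h had lower levels of most targets than those of 6 h. Time in culture and any difference in handling between the times cannot be told apart in this comparison. In the vehicle groups 6 members were called, all lower at 24 h: Gadd45g, Plk2, Cdkn1a, Mdm2, Zmat3 and Bbc3. That comparison called 26.7% of all genes and 14.2% as lower. The log2 differences were -0.89 (SE 0.20, edgeR FDR 0.00183) for Gadd45g, -0.84 (SE 0.22, FDR 0.00502) for Plk2 and -0.65 (SE 0.13, FDR 0.000323) for Cdkn1a. They were -0.49 (SE 0.16, FDR 0.0309) for Mdm2, -0.48 (SE 0.17, FDR 0.0343) for Zmat3 and -0.46 (SE 0.17, FDR 0.0550) for Bbc3. These last calls depended on the setting: in a fit with a covariate for the percentage of reads outside genes, the FDR was 0.134 for Mdm2 and 0.143 for Bbc3, and without the filter on low counts it was 0.172 for Zmat3 and 0.260 for Bbc3. All vehicle libraries of 24 h lay below those of 6 h for these 6 members, which held for 15.9% of genes. Trp53inp1 had an estimate in the other direction, from 10.6, 11.7 and 13.3 CPM at 6 h to 24.0, 16.6 and 16.8 CPM at 24 h (0.68, SE 0.34, FDR 0.162). Without the third vehicle library of 6 h the count was 3, with Mdm2, Zmat3, Bbc3 and Gadd45g lost and Phlda3 gained (-0.48, FDR 0.0722), and without any other library it was between 4 and 6. Markers of cell types were called in the same comparison too: 5 of 7 tested of mesenchymal cells (4 higher), 3 of 7 of neurons (1 higher), 2 of 3 of microglia (1 higher) and 1 of 2 of astrocytes (lower). Their part was not tested.

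This comparison and the one of CBD with vehicle at 6 h share the vehicle libraries of 6 h, so their resemblance is not independent evidence. Side by side, Cdkn1a had a mean of 619 ± 34.4 CPM in vehicle at 6 h (SD, n = 3), 444 ± 33.0 with CBD at 6 h (n = 12), 394 ± 56.1 in vehicle at 24 h (n = 3) and 379 ± 32.2 with CBD at 24 h (n = 12). Plk2 had 48.2 ± 1.65, 25.5 ± 5.78, 26.98 ± 3.60 and 22.2 ± 3.38 CPM in that order. In both genes the vehicle libraries of 6 h were above all others, and the other 3 groups overlapped. Bbc3 had 55.9 ± 2.66, 37.6 ± 6.77, 40.6 ± 5.93 and 45.6 ± 7.48 CPM, with the highest mean in the same group. Whether the vehicle libraries of 6 h or the CBD-treated ones depart from the usual level of these cells cannot be told apart, since no untreated or earlier culture was among the groups.

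**Figure D4:**
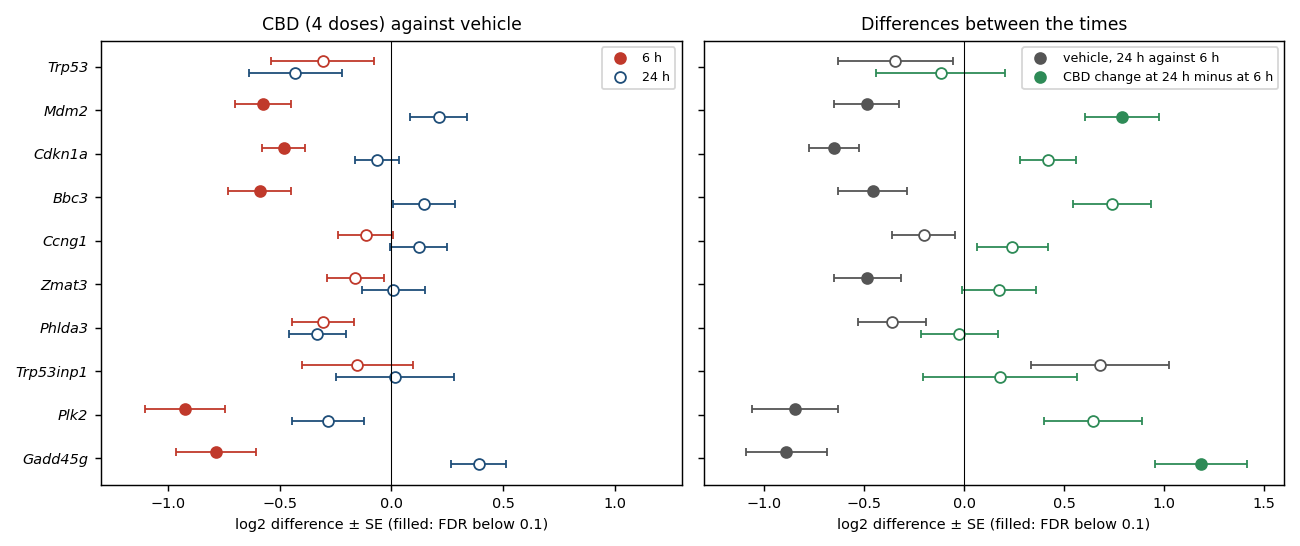
Log2 differences of the 10 members ± SE, filled where the FDR was below 0.1: left, the 4 doses of CBD together against vehicle at 6 h (red) and 24 h (blue); right, vehicle of 24 h against vehicle of 6 h (grey) and the CBD change at 24 h minus that at 6 h (green). In the left panel 5 members are filled at 6 h and none at 24 h, and 6 are filled in grey on the right, all below 0.

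Trp53 itself was set beside each target across the 15 libraries of each time, on log2 CPM. Of the 18 relations, none passed an adjusted p of 0.05 in a two-sided permutation test with 100000 permutations. The strongest were with Zmat3 at 24 h (Pearson r = 0.58, permutation p = 0.0249, adjusted p = 0.242, Spearman rho = 0.51, permutation p = 0.0535, adjusted p = 0.250) and with Ccng1 at 6 h (r = 0.57, permutation p = 0.0269, adjusted p = 0.242, rho = 0.40, permutation p = 0.142, adjusted p = 0.513). Without the 2 libraries farthest from the median of Trp53, r was 0.43 for Zmat3 and 0.44 for Ccng1. After subtraction of group means r was 0.54 and 0.74. For Cdkn1a, r was 0.34 at 6 h and 0.19 at 24 h, with adjusted permutation p of 0.478 and 0.753. Trp53 rests on 20 to 111 reads a library, so counting error alone can draw r towards 0, and a relation could be missed.

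The other genes with patterns most like Trp53 over the 30 libraries, by Pearson r of log2 CPM among 12780 genes, were Sipa1l3 (r = 0.74), Nup160 (0.72) and Slc38a4 (0.71). Most like Cdkn1a were Chac1 (0.86), Slc7a1 (0.85) and Eif6 (0.83). Chac1, a glutathione-degrading enzyme, and Slc7a1, a transporter of basic amino acids, are known targets of the ATF4 stress response. Slc7a1 was at 167 ± 16.7 CPM in vehicle at 6 h (SD, n = 3), 118 ± 9.49 with CBD at 6 h (n = 12), 85.4 ± 8.04 in vehicle at 24 h (n = 3) and 88.0 ± 12.2 with CBD at 24 h (n = 12), with vehicle of 6 h again the high group. The libraries differ in depth and come from both times, so these values are descriptive.

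The rest of the pathway was read from lists of genes, also chosen with earlier results of these data known. Of 79 genes on 6 lists, 68 were tested at 6 h, and 3 were called over the 4 doses together, all lower, against the 0.749% of all genes given above. Among 15 tested genes that control p53 (Mdm4, Atm and Chek2 among those listed) none was called, with a median of 0.08. Among 9 tested further targets of arrest and DNA repair (such as Btg2, Sesn1 and Sesn2) none was called, with a median of -0.42. Among 10 of cell death 1 was called, with a median of -0.17, and among 11 of metabolism and other roles 1, with a median of -0.05. Among 10 paralogs of the members 1 was called, with a median of -0.05, and among 16 cell cycle genes that p21 lowers through the RB and DREAM complexes none, with a median of 0.01. The median of all genes was -0.02. Before adjustment 3 of the arrest genes, 3 of cell death, 1 of metabolism, 2 of the paralogs and 0 of both the control and the cell cycle genes had a p below 0.05 by edgeR, as had 1234 of the 12012 genes tested.

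The 3 genes called were Gdf15, Eda2r and Gadd45b. Gdf15, a secreted stress hormone that acts on the hindbrain to lower feeding and a target of p53 and ATF4, was at 16.4, 25.6 and 27.7 CPM in vehicle at 6 h and from 3.18 to 14.2 with CBD. The groups did not overlap, and the log2 fold change was -1.38 (SE 0.27, edgeR FDR 0.0161, and 0.132 without the second vehicle library). Eda2r, a receptor of the tumour necrosis factor family, was at 10.6, 11.4 and 14.4 CPM in vehicle and from 2.61 to 7.04 with CBD, again without overlap (-1.26, SE 0.32, FDR 0.0803). Its call was lost in 10 of 15 omissions of a library. Gadd45b, the paralog of Gadd45g, was at 35.6, 41.1 and 80.8 CPM in vehicle and from 21.2 to 47.7 with CBD, where the groups overlapped (-0.79, SE 0.20, FDR 0.0812). Without the third vehicle library the value of Gadd45b was -0.30, with an FDR of 0.598, and its call was lost in 8 of 15 omissions. At 24 h none of the 68 tested list genes was called over the 4 doses together, and none was called at a single dose of either time.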

How the data were processed

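Sequencing libraries were prepared with the QuantSeq 3′ mRNA-Seq FWD kit, and the authors trimmed reads, mapped them with STAR 2.7.5c to GRCm39 and counted them per Ensembl gene with HTSeq 1.99.2 (versions from the submitters' processing notes). What was deposited is raw counts, 1 table for each of 30 libraries, and the strand setting is not given in the sources used here. Symbols and positions were taken from GENCODE M21 on GRCm38, which named 51948 of 56941 IDs. Reads outside genes (17.7 to 22.2% of a library) stayed out of library sizes. Counts were fitted in R 4.3.3 with edgeR 4.0.16 (filterByExpr, TMM, quasi-likelihood F-test), by time with 15 libraries and over all 30, with Benjamini-Hochberg adjustment over all genes of a comparison and a threshold of 0.1. The scripts were tested on simulated data. Alternatives were DESeq2 1.42.0, RLE normalization, no filter, at least 10 counts in every library, a fit of only the groups compared, omission of each library, and a covariate for the percentage of reads outside genes. Log2 CPM for relations used a prior count of 2. Replicate numbers follow accession order. The text names the 10 members, list genes called for CBD over the 4 doses together or at a single dose (up to 5 per list and time), and the 3 genes most like Trp53 and Cdkn1a. The members and lists were chosen with earlier results of these data known. Sequences are from RefSeq.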

Additional observations from a re-analysis of the deposited data

Results flagged for a closer look

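A pair of members had a change from vehicle to CBD that differed between 6 h and 24 h in the test of that difference over all 30 libraries, against 0.235% of all genes. For Gadd45g the change at 24 h minus the change at 6 h was 1.18 on the log2 scale (SE 0.23, edgeR FDR 0.0233), from -0.79 at 6 h to 0.39 at 24 h in the fits by time. For Mdm2 it was 0.79 (SE 0.18, edgeR FDR 0.0656), from -0.57 to 0.21. In both genes the third vehicle library of 6 h, the most deeply sequenced of its group, was the highest of all 30, at 120 CPM for Gadd45g and 147 CPM for Mdm2. Without that library neither was called, at 0.75 (edgeR FDR 0.308) for Gadd45g and 0.54 (FDR 0.461) for Mdm2. The call of Mdm2 was lost in 12 of 30 omissions of a library.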

How the results depend on the processing

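No paired analysis was possible because the labels number libraries in 1 running order and give groups no shared replicate numbers. For member calls at single doses of 6 h the count of 0 became 11 with DESeq2, 8 without a filter and 14 with a covariate for the percentage of reads outside genes, and at 24 h it became 1 with only the groups compared (Mdm2 at 0.75 µM). In the trend at 24 h the count of 0 became 1 with DESeq2 and 1 with at least 10 counts in every library. With the covariate, the count at 3 µM against lower doses at 24 h went from 2 to 0, and that of differences between the times from 2 to 1. The cause of these shifts was not tested. With 1 library left out, counts ran from 3 to 5 over the 4 doses together at 6 h, from 0 to 6 at single doses of 6 h, from 0 to 2 in the trend at 24 h, from 0 to 3 at 3 µM against lower doses at 24 h, from 0 to 3 between the times and from 3 to 6 between the vehicle groups. The relation of Trp53 to targets went from 0 to 1, which was Zmat3 at 24 h without the first vehicle library (r = 0.74, permutation adjusted p = 0.0477, n = 14). All other counts were the same within 1.5 times. Some estimates, none of them called, changed sign. Zmat3 at 3 µM and 6 h went from -0.003 to 0.014 without a filter and 0.0012 with the covariate. With the covariate, Trp53 at 3 µM against lower doses of 24 h went from 0.48 (SE 0.23, edgeR FDR 0.215) to -0.019. Phlda3 between the times went from -0.02 to 0.0511 with it. Leaving out libraries moved Gadd45g at 0.75 µM of 6 h from -0.56 to 0.0296, Trp53 at 1.5 µM from -0.47 to 0.0443 and at 3 µM from -0.43 to 0.0571, Ccng1 at 3 µM from -0.11 to 0.0605 and Zmat3 at 3 µM from -0.0416 to 0.033. Over the 4 doses at 24 h it moved Cdkn1a from -0.17 to 0.0263, Zmat3 from -0.11 to 0.12 and Trp53inp1 from -0.11 to 0.23. At 3 µM against lower doses of 24 h it moved Cdkn1a from -0.0474 to 0.0704, Bbc3 from -0.0947 to 0.004, Ccng1 from -0.17 to 0.0723 and Gadd45g from -0.105 to 0.0626, and between the times Trp53 from -0.24 to 0.0288 and Phlda3 from -0.12 to 0.11. Depth limits Trp53 and Trp53inp1 most.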

Other observations

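At 24 h, 7 genes of the pathway lists differed between 3 µM and the 3 lower doses. They fall outside the rule for named genes and were chosen after their values were seen. Cdk1 and Ccnb1 are the kinase and cyclin that drive entry into mitosis, and Cdc20 activates the anaphase-promoting complex. They were 3 of 16 tested cell cycle genes, all lower at 3 µM. Of all genes, 10.5% were called in either direction, with 6.36% called higher. Cdk1 was at 80.9, 142 and 185 CPM at 3 µM, from 203 to 310 CPM in the 9 libraries of lower doses and at 164, 175 and 297 CPM in vehicle (log2 difference from the lower doses -0.92, SE 0.18, edgeR FDR 0.00518). Ccnb1 differed by -0.41 (SE 0.12, FDR 0.0364) and Cdc20 by -0.58 (SE 0.16, FDR 0.0378). The median of the 16 genes was -0.02, against 0.01 for all genes. Cdkn1b, which encodes p27, the relative of p21, was lower by -0.53 (SE 0.14, FDR 0.0230), Trp53inp2 by -0.64 (SE 0.21, FDR 0.0687) and the adenylate kinase Ak1 by -0.61 (SE 0.16, FDR 0.0257). Bax, the effector of mitochondrial apoptosis, was higher by 0.81 (SE 0.29, FDR 0.0915), at 6.30, 13.6 and 19.8 CPM against 4.14 to 9.27 CPM at lower doses, which overlap. Its call was lost with DESeq2 (FDR 0.113) and in 11 of 15 omissions of a library, down to 0.38 (FDR 0.693) without the first library of 3 µM. Without that library Trp53inp2 was at -0.36 (FDR 0.494) and Ak1 at -0.38 (FDR 0.288), and the calls of Cdkn1b, Cdc20 and Ccnb1 were lost too, while that of Cdk1 held in each omission. With the percentage of reads outside genes as a covariate none of the 7 was called, although the difference was -0.91 for Cdk1, -0.69 for Cdkn1b, -1.02 for Trp53inp2 and 1.304 for Bax. It was smaller for Ak1 (-0.38), Ccnb1 (-0.30) and Cdc20 (-0.26).

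In vehicle, from 6 h to 24 h, the further targets of p53 moved in both directions, unlike the 6 members called there, which were all lower. Of 9 tested targets of arrest and DNA repair 2 were called lower and 0 higher, of 10 of cell death 2 lower and 1 higher, and of 11 of metabolism and other roles 2 lower and 3 higher, against 26.7% of all genes. Btg2, which slows the cell cycle, was lower by -0.95 (SE 0.23, edgeR FDR 0.00318) and the receptor Eda2r by -0.998 (SE 0.37, FDR 0.0529). Dcxr, a carbonyl reductase, was higher by 0.81 (SE 0.26, FDR 0.0232). Of 10 tested paralogs of the members 4 were called, 2 higher and 2 lower. Cdkn1b was higher by 1.27 (SE 0.19, FDR 1.08e-05) and Ccng2 by 1.48 (SE 0.50, FDR 0.0305). Gadd45b was lower by -0.69 (SE 0.25, FDR 0.0437) and Plk1 by -0.52 (SE 0.17, FDR 0.0260). These genes too were named after their values were seen.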
